A study of Mus musculus with 24 samples.

Results

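The genes described here are 10 immediate early genes, Fos, Fosb, Fosl1, Jun, Junb, Egr1, Egr2, Atf3, Ier3 and Dusp1. They were taken from the 18723 genes of the deposited expression table by their symbols alone. The set was chosen with earlier results of these data known. Each symbol matched 1 row. They were followed in 24 tumours grown from Lewis Lung Cancer cells, a mouse line labelled as lung adenocarcinoma, in wild-type (WT) mice. In the triple group (8 tumours, T) the mice received poly I:C, anti-PD-1 and blockade of C5aR1. In the dual group (8 tumours, D) they received poly I:C and anti-PD-1, and in the vehicle group (8 tumours, C) vehicle alone. Poly I:C (synthetic RNA that cells sense as viral) was given into the tumour at 50 ug on days 11 and 15, and the antibody against the checkpoint receptor PD-1 into the peritoneum at 100 ug on days 7, 10 and 14. PMX53 was given under the skin at 1 mg/kg each day from day 6 and is read here as the agent behind that blockade. Each group also has its own run of library numbers in the titles, so that any effect of library order and that of treatment cannot be told apart. Whole tumours were sequenced, so a level is the sum over tumour cells and all host cells in the piece, and fewer cells of a type cannot be told apart from less RNA per cell.

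Immediate early genes are transcribed within minutes of a signal from pre-existing factors, without new protein synthesis, and most of their RNAs are short-lived. FOS and JUN proteins pair through leucine zippers to form AP-1, EGR proteins bind GC-rich sites through zinc fingers, and the MAP kinases that switch these genes on are in turn switched off by phosphatases such as DUSP1. In tumours they are induced by growth factors, inflammatory signals and tissue stress, and handling or loss of blood supply during dissection also induces them. The time between the last injection, death and extraction was not given in the sources used here.

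The sequence around the start site is shown for 4 of the 10 genes, picked because they carry different elements. Whether these elements played a part in the levels of the genes was not tested. RefSeq promoter windows (build GRCm38.p6, 250 bases before to 50 after the start), assigned by symbol, were searched for 8 of the 10 genes. No window of Fosl1 or Egr1 was searched, so the matches say nothing about the promoters of Fosl1 and Egr1. Capitals mark matches on either strand to the cAMP response element (CRE; TGACGTCA) or the core of it, TGACG, to the CArG box bound by serum response factor, and to the NF-kappaB site. The core lies within the full element, so matches to them overlap.
Fos (chr12:85473640-85473939, plus strand): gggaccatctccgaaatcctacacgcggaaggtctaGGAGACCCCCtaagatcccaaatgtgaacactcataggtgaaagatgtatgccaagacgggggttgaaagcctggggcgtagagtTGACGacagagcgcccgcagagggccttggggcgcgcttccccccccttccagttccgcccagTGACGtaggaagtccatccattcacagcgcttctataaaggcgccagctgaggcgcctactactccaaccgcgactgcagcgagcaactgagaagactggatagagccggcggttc
Dusp1 (chr17:26508423-26508722, minus strand): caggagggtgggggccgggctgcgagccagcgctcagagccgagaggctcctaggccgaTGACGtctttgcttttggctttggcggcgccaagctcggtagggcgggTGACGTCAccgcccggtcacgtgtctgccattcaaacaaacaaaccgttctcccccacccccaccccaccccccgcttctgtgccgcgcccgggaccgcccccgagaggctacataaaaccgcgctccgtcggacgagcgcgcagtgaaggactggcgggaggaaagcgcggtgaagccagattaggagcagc
Ier3 (chr17:35821463-35821762, plus strand): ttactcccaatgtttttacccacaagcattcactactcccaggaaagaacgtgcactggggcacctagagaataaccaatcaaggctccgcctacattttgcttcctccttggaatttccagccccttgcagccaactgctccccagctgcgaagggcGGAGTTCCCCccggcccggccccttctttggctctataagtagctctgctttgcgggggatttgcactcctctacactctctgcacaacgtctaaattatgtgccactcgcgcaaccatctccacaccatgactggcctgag
Egr2 (chr10:67537619-67537918, plus strand): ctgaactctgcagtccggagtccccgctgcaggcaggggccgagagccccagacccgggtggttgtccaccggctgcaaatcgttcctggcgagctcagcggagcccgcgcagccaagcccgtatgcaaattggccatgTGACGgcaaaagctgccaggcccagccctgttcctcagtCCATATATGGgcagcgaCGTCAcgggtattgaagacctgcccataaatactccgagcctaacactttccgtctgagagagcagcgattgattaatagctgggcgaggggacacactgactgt

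The core TGACG was found in the windows of 6 of the 8 genes (Fos, Fosb, Junb, Egr2, Atf3 and Dusp1), and in 20.8% of all 32851 windows of that length. In Fos its first bases lie at -129 and -66 from the start. The full element TGACGTCA was found only in Dusp1 among the 8 genes, at -143, and in 1.79% of all windows. The CArG box was found only in Egr2 among the 8, at -72 in the window shown and in 4 of its 5 RefSeq windows. The Egr2 windows starting at 67537619, 67537620 and 67537680 overlap and hold the same CCATATATGG. A CArG box was found in 1.63% of all windows. The NF-kappaB site was found in Fos (-214), Fosb (-188) and Ier3 (-92), and in 4.51% of all windows. The AP-1 site TGACTCA and the EGR site GCGTGGGCG were found in 0 of the 8 genes, and in 5.20% and 0.612% of all windows. These matches describe letters in these windows and not bound sites.

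Totals over the listed genes ran from 15671388 to 19254090 reads per tumour in triple, 14535983 to 19046105 in dual and 14438318 to 17225195 in vehicle tumours. Levels are given below in CPM, read counts scaled to library size, taken back from the deposited log2 values, which hold an offset of 0.5 reads. The lowest number of reads behind any value of the 10 genes was 19, for Fosb in a vehicle tumour. Over 9362 genes of at least median expression, triple tumour T_352_S48 lay farthest from the median of its group, with a median absolute difference of 0.41 on the log2 scale, against 0.06 to 0.22 for the other triple tumours, 0.07 to 0.18 for dual and 0.05 to 0.14 for vehicle tumours. Markers of host cells were spread unevenly. The 20 skeletal muscle markers took 0.0310% to 0.305% of the signal in triple, 0.0299% to 0.111% in dual and 0.0186% to 0.0654% in vehicle tumours, and 19 of 20 listed neutrophil markers took 0.0392% to 0.257%, 0.0615% to 0.131% and 0.0120% to 0.0184% in the same order of groups. The 14 macrophage and monocyte markers took 0.157% to 0.813% in triple, 0.159% to 0.25% in dual and 0.243% to 0.325% in vehicle tumours, and the 12 fibroblast markers 0.31% to 4.29%, 0.391% to 1.26% and 0.596% to 1.11%. T_352_S48 held the highest shares of macrophage (0.813%), fibroblast (4.29%), T cell (0.0568%) and adipocyte (0.101%) markers, and T_331_S44 the lowest of all 4 among triple tumours. Of 12 epithelial and lung adenocarcinoma markers 8 were measured, and together they took 0.00335% to 0.00762% of the signal in any tumour; Nkx2-1, Sftpc, Sftpb and Sftpa1 were not analysed here. Whether marker-bearing cells contributed to the levels of the 10 genes was not tested.

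Per kilobase of exon, the 10 genes covered a wide range of levels. Ier3 stood highest in treated tumours, at 124 CPM per kilobase in triple, 127 in dual and 68.9 in vehicle tumours (group means), followed by Fosl1 at 109, 115 and 43.6, Junb at 87.0, 94.2 and 70.5, and Jun at 65.4, 53.7 and 45.1 in the same order of groups. In vehicle tumours Junb came first and Fosl1 last of these 4. In triple tumours these 4 lay between the 96.3 and 98.4 percentiles of all genes. Dusp1 (38.1, 24.5 and 11.3), Fos (25.9, 16.5 and 8.41) and Atf3 (23.4, 16.9 and 7.19) were intermediate. Egr1 (6.83, 4.61 and 2.94), Egr2 (1.36, 0.989 and 0.849) and Fosb (1.32, 0.997 and 0.995) were low, and Egr2 and Fosb lay between the 31.6 and 35.5 percentiles in every group. Neighbours such as Ier3 and Fosl1 in triple tumours, or Egr2 and Fosb, were closer than the spread between tumours of a group.

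The dual group was set against vehicle to see how poly I:C and anti-PD-1 together moved these genes. Of the 10 genes 7 rose and 0 fell (limma, adjusted p under 0.05 over all 18723 genes), where 15.0% of all genes rose and 15.8% fell. The median log2 fold change was 0.84 over the 10 genes and -0.03 over all genes. With every dual tumour beyond every vehicle tumour, 2 of the 10 lay higher and 0 lower, where 5.81% of all genes lay wholly higher and 3.65% wholly lower. The largest changes were those of Fosl1, Atf3, Dusp1, Ier3 and Fos, and Jun and Junb moved little. Egr1, Egr2 and Fosb did not pass the test.

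The triple group was set against the same vehicle tumours for the effect of all 3 agents. Again 7 of the 10 rose and 0 fell, where 23.0% of all genes rose and 22.8% fell, with a median log2 fold change of 1.06 over the 10 genes and -0.02 over all genes. Here 2 of the 10 lay wholly above vehicle and 0 wholly below, where 4.00% of all genes lay wholly higher and 5.85% wholly lower. The 7 were Fos, Fosl1, Jun, Egr1, Atf3, Ier3 and Dusp1, so Egr1 was called here and Junb was not. The comparisons thus share their controls. Of 19 neutrophil markers 18 rose in triple (median log2 fold change 3.20) and 18 in dual (3.50) against vehicle. Of 20 muscle markers 18 rose in triple (1.72) and 2 in dual (0.53). Of 14 T cell markers 12 rose in triple (1.22) and 0 in dual (0.06). The part of any of these cell types in the changes of the 10 genes was not tested. The genes are taken in turn below by family, with both comparisons side by side. The fold changes and their 95% intervals are drawn in the plot of fold changes by gene.

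**Figure D1:**
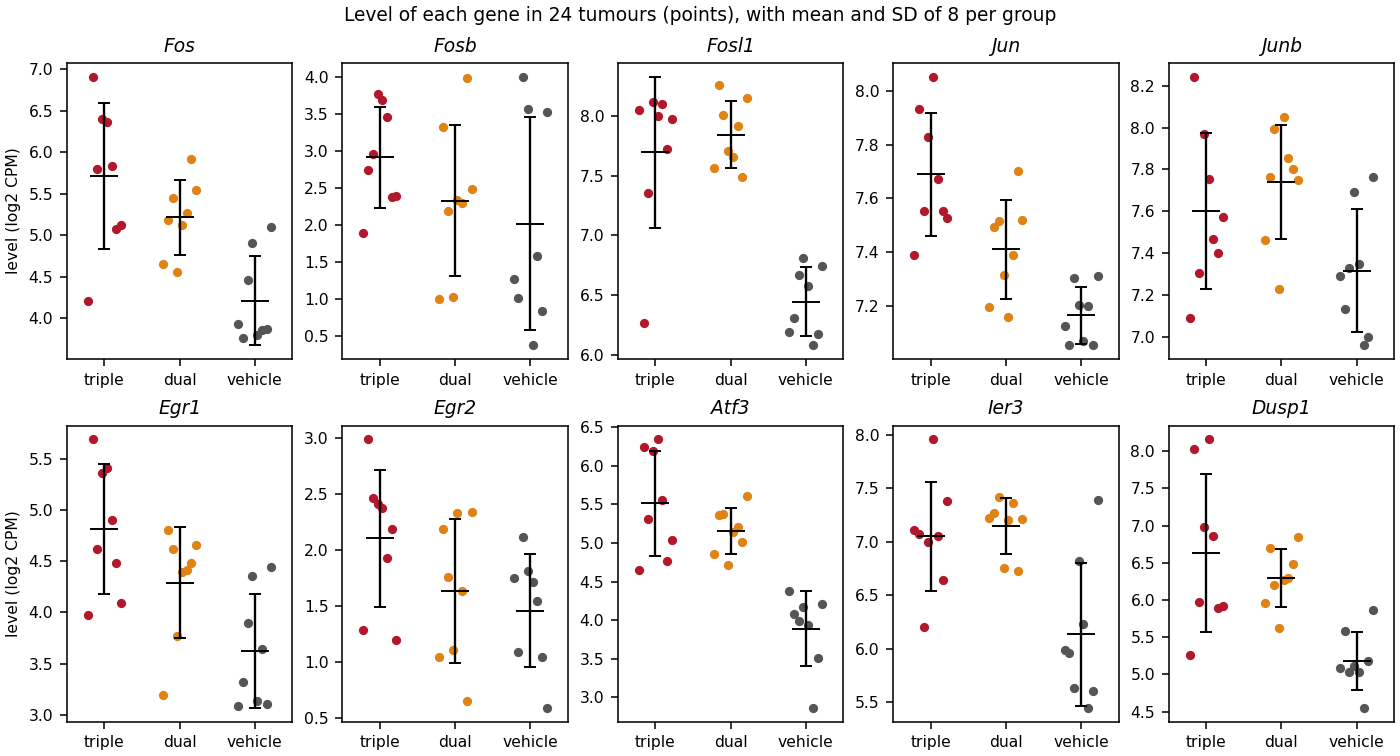
Level of each of the 10 genes (log2 CPM, y axis) in triple, dual and vehicle tumours, 1 point per tumour, with the mean and SD of 8 tumours per group as a bar. Fosl1 and Atf3 in dual tumours lie wholly above vehicle, while the Fosb points of all 3 groups overlap.

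**Figure D2:**
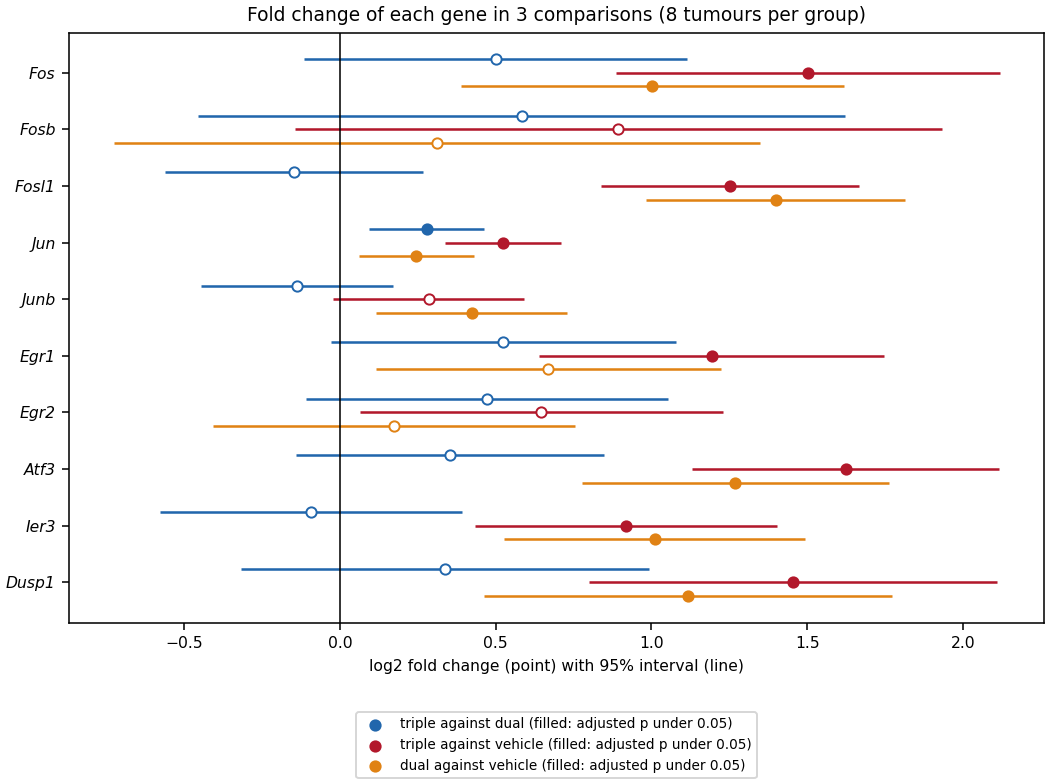
Log2 fold change of each gene (x axis, point) with its 95% interval (line) for triple against dual, triple against vehicle and dual against vehicle, from limma on 24 tumours; filled points passed an adjusted p of 0.05. Of the 10 genes, 7 are filled in each comparison with vehicle and 1, Jun, in triple against dual.

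Fos (ENSMUSG00000021250, GRCm39 chr12:85520664-85524047, plus strand) encodes the FOS subunit of AP-1. Its level ran from 18.5 through a median of 56.3 to 120.2 CPM in triple tumours, from 23.7 through 37.5 to 60.7 CPM in dual tumours and from 13.5 through 15.0 to 34.3 CPM in vehicle tumours. The groups overlapped: 5 vehicle tumours lay below every treated tumour, and T_331_S44 at 18.5 CPM was the lowest of the triple group while T_352_S48 at 120.2 CPM was the highest. Fos rose by 1.00 ± 0.30 on the log2 scale in dual against vehicle (SE, n = 8 per group; limma adjusted p = 0.0126) and by 1.50 ± 0.30 in triple against vehicle (limma adjusted p = 0.000306), with 8 of 8 tumours above the vehicle median in both. Without the 5 triple tumours whose muscle marker share exceeded that of every dual and vehicle tumour (T_352_S48, T_353_S45, T_354_S47, T_355_S43 and T_362_S42, a choice made after the data were seen), the triple change was 0.84 (adjusted p = 0.0548).

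Fosb (ENSMUSG00000003545, GRCm39 chr7:19036621-19043976, minus strand) encodes a second FOS family subunit. It ran from 3.70 through 7.24 to 13.6 CPM in triple, from 1.99 through 4.96 to 15.8 CPM in dual and from 1.29 through 2.69 to 16.0 CPM in vehicle tumours. The groups overlapped throughout: vehicle tumours C_356_S27, C_358_S26 and C_375_S31 held 16.0, 11.8 and 11.4 CPM, whereas the other 5 vehicle tumours held at most 2.98 CPM. The log2 fold change was 0.31 ± 0.50 in dual against vehicle (SE, n = 8 per group; limma adjusted p = 0.676) and 0.89 ± 0.50 in triple against vehicle (limma adjusted p = 0.15), with 95% intervals of -0.73 to 1.35 and -0.14 to 1.93. On leaving out single tumours the dual value ran from 0.074 to 0.59 and the triple value from 0.66 to 1.18. The SD of its log2 level was 1.44 among vehicle tumours, above that of 98.3% of all genes.

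Fosl1 (ENSMUSG00000024912, GRCm39 chr19:5497575-5505974, plus strand) encodes FRA-1, a FOS family protein that is typically made later and held longer than FOS and is often abundant in invasive carcinoma cells. It ran from 76.8 through 253 to 277 CPM in triple, from 179 through 225 to 307 CPM in dual and from 67.6 through 87.5 to 112 CPM in vehicle tumours. Dual tumours lay wholly above vehicle tumours. The lowest triple tumour, T_352_S48, lay at 76.8 CPM within the vehicle range, and the next lowest triple tumour was at 164 CPM. Fosl1 rose by 1.40 ± 0.20 in dual against vehicle (SE, n = 8 per group; limma adjusted p = 1.79e-05) and by 1.25 ± 0.20 in triple against vehicle (limma adjusted p = 3.46e-05), in 8 of 8 and 7 of 8 tumours. Its annotated span overlaps 2767 bases of Ccdc85b on the opposite strand, and the strand setting of the counting was not given in the sources used here.

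Jun (ENSMUSG00000052684, GRCm39 chr4:94937271-94940459, minus strand) encodes the JUN partner of FOS proteins. It ran from 168 through 196 to 266 CPM in triple, from 143 through 174 to 208 CPM in dual and from 133 through 143 to 159 CPM in vehicle tumours. All 8 triple tumours lay above all 8 vehicle tumours. The change was small but regular, 0.52 ± 0.09 in triple against vehicle (SE, n = 8 per group; limma adjusted p = 6.93e-05). In dual against vehicle it was 0.25 ± 0.09 (limma adjusted p = 0.0397), a call that ended with untrended variance (adjusted p = 0.0525), with quantile normalization (log2 fold change 0.13, adjusted p = 0.274), with a muscle score in the model (adjusted p = 0.081) and on leaving out any of 10 tumours (D_357_S37, D_359_S39, D_368_S36, D_370_S38, D_373_S40, C_339_S25, C_351_S29, C_361_S32, C_364_S28 or C_369_S30; adjusted p = 0.0501 to 0.08). Jun overlaps 689 bases of the antisense RNA gene Junos.

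Junb (ENSMUSG00000052837, GRCm39 chr8:85701113-85705347, minus strand) encodes another JUN family subunit, abundant in activated myeloid cells. It ran from 136 through 184 to 303 CPM in triple, from 150.0 through 220.3 to 265 CPM in dual and from 125 through 159 to 217 CPM in vehicle tumours, and all 3 groups overlapped. Junb rose by 0.42 ± 0.15 in dual against vehicle (SE, n = 8 per group; limma adjusted p = 0.0327; 7 of 8 tumours above the vehicle median). That call ended with quantile normalization (adjusted p = 0.0979), with the muscle covariate (adjusted p = 0.051) and on leaving out any of 7 tumours (D_357_S37, D_359_S39, D_367_S35, D_368_S36, C_351_S29, C_364_S28 or C_369_S30; adjusted p = 0.0505 to 0.0693). In triple against vehicle its log2 fold change was 0.29 ± 0.15 (limma adjusted p = 0.12), 0.36 (adjusted p = 0.0442) without T_331_S44, 0.16 (adjusted p = 0.361) with quantile normalization and 0.063 (adjusted p = 0.816) with the 5 muscle-rich tumours left out. The span of Junb also overlaps Prdx2 on the opposite strand.

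Egr1 (ENSMUSG00000038418, GRCm39 chr18:34992876-34998037, plus strand) encodes a zinc finger factor induced by growth factors and stress. It ran from 15.7 through 27.3 to 51.7 CPM in triple, from 9.13 through 21.8 to 27.9 CPM in dual and from 8.52 through 11.2 to 21.8 CPM in vehicle tumours, with overlap between all groups. Egr1 rose by 1.19 ± 0.27 in triple against vehicle (SE, n = 8 per group; limma adjusted p = 0.000973; 8 of 8 tumours above the vehicle median), but with the 5 muscle-rich tumours left out the change was 0.70 (adjusted p = 0.111). In dual against vehicle the log2 fold change was 0.67 ± 0.27 (limma adjusted p = 0.0604). It passed the test with tumour weights (0.76, adjusted p = 0.00553), in a fit of those 2 groups alone (adjusted p = 0.0306), with median centring (adjusted p = 0.0437), with the 5 muscle-rich tumours left out (adjusted p = 0.0316) and without any of T_331_S44, T_352_S48, D_344_S33, D_366_S34, C_358_S26 or C_375_S31 (adjusted p = 0.0165 to 0.0472).

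Egr2 (ENSMUSG00000037868, GRCm39 chr10:67371305-67378018, plus strand), a paralog with roles in nerve myelination and lymphocyte tolerance, was low throughout. It ran from 2.29 through 4.87 to 7.94 CPM in triple, from 1.57 through 3.24 to 5.05 CPM in dual and from 1.50 through 3.10 to 4.34 CPM in vehicle tumours. The lowest tumours of the 3 groups lay close together and the highest was T_352_S48. The log2 fold change was 0.65 ± 0.28 in triple against vehicle (SE, n = 8 per group; limma adjusted p = 0.0634) and 0.17 ± 0.28 in dual against vehicle (limma adjusted p = 0.676). The triple change passed the test without T_331_S44, T_363_S41 or C_356_S27 (log2 fold change 0.74 to 0.78, adjusted p = 0.0267 to 0.0402). It was 0.013 (adjusted p = 0.982) with the 5 muscle-rich tumours left out and 0.18 (adjusted p = 0.746) with the muscle score in the model. The dual value ran from 0.050 to 0.31 on leaving out single tumours.

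Atf3 (ENSMUSG00000026628, GRCm39 chr1:190902493-190950236, minus strand) encodes a stress-induced factor of the ATF and CREB family that dampens inflammatory transcription in macrophages. It ran from 25.1 through 43.3 to 81.3 CPM in triple, from 26.3 through 36.1 to 49.0 CPM in dual and from 7.25 through 16.3 to 20.7 CPM in vehicle tumours. It was the only one of the 10 genes with every triple and every dual tumour above every vehicle tumour. Atf3 rose by 1.62 ± 0.24 in triple against vehicle (SE, n = 8 per group; limma adjusted p = 1.33e-05) and by 1.27 ± 0.24 in dual against vehicle (limma adjusted p = 0.000291). With the 5 muscle-rich tumours left out the triple change was 1.19 (adjusted p = 0.00135).

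Ier3 (ENSMUSG00000003541, GRCm39 chr17:36132576-36133815, plus strand) encodes a small membrane protein, an NF-kappaB target that modulates cell survival. It ran from 73.7 through 133 to 248 CPM in triple, from 106 through 149 to 171 CPM in dual and from 43.5 through 62.7 to 168 CPM in vehicle tumours. The groups overlapped, since vehicle tumour C_375_S31 at 168 CPM and the next highest vehicle tumour at 113 CPM lay within the treated range. Ier3 rose by 1.01 ± 0.24 in dual against vehicle (SE, n = 8 per group; limma adjusted p = 0.00206) and by 0.92 ± 0.24 in triple against vehicle (limma adjusted p = 0.00283), with 8 of 8 tumours above the vehicle median in both.

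Dusp1 (ENSMUSG00000024190, GRCm39 chr17:26724564-26781102, minus strand) encodes a nuclear phosphatase that inactivates p38, JNK and ERK MAP kinases and is itself an immediate early gene. It ran from 38.2 through 89.4 to 286 CPM in triple, from 49.2 through 77.8 to 115 CPM in dual and from 23.4 through 34.3 to 58.4 CPM in vehicle tumours. The triple group was the most uneven, with T_355_S43 at 286 and T_352_S48 at 261 CPM above every other tumour, and the highest value 7.49 times the lowest. Dusp1 rose by 1.45 ± 0.32 in triple against vehicle (SE, n = 8 per group; limma adjusted p = 0.000735) and by 1.12 ± 0.32 in dual against vehicle (limma adjusted p = 0.00936), with 8 of 8 tumours above the vehicle median in both. With the 5 muscle-rich tumours left out the triple change was 0.83 (adjusted p = 0.0285). It overlaps 640 bases of Ergic1 on the opposite strand.

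Triple was set against dual treatment for what C5aR1 blockade added. Of the 10 genes 1 rose and 0 fell, where 11.4% of all genes rose and 9.97% fell, and the median log2 fold change was 0.34 over the 10 genes and -0.00 over all genes. With median centring the split over all genes was 1724 higher and 2976 lower, and with quantile normalization 1792 and 2414, beside 2140 and 1867 as deposited; with the 5 muscle-rich tumours left out 2 genes rose and 0 fell. In no member did the groups separate fully, which 0.262% of all genes did upwards and 0.214% downwards. The gene that rose was Jun, by 0.28 ± 0.09 (SE, n = 8 per group; limma adjusted p = 0.0314), with 7 of 8 triple tumours over the median of dual tumours. That call ended without any of T_352_S48, T_354_S47, T_355_S43, D_344_S33, D_366_S34, D_367_S35 or D_368_S36 (adjusted p = 0.0508 to 0.0698), in a fit of those 2 groups alone (adjusted p = 0.0841), in the exact permutation test (adjusted p = 0.0897), with median centring (log2 fold change 0.18, adjusted p = 0.113) and with the muscle covariate (adjusted p = 0.28). With the 5 muscle-rich tumours left out, so with T_331_S44, T_360_S46 and T_363_S41 as the whole triple group, the Jun change was 0.12 (adjusted p = 0.725).

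The other 9 genes did not pass the test, and their intervals leave room for change in either direction. The log2 fold change of Fos was 0.50 (95% interval -0.12 to 1.12; limma adjusted p = 0.221), and it was 0.72 (adjusted p = 0.0377) without T_331_S44. For Egr1 it was 0.52 (-0.03 to 1.08), for Fosb 0.58 (-0.45 to 1.62), for Egr2 0.47 (-0.11 to 1.05), for Atf3 0.35 (-0.14 to 0.85) and for Dusp1 0.34 (-0.32 to 0.99); that of Dusp1 ran from 0.12 to 0.53 on leaving out single tumours. It was below 0 for Fosl1 (-0.15, -0.56 to 0.27), Junb (-0.14, -0.44 to 0.17) and Ier3 (-0.09, -0.58 to 0.39). Without T_352_S48 the Fosl1 value was 0.058, and without T_353_S45 the Ier3 value was 0.029, so neither sign was fixed. Triple tumours carried a median muscle marker share of 0.158%, against 0.0622% in dual tumours, and a median macrophage and monocyte share of 0.34% against 0.207%. Their median T cell marker share was 0.0265%, against 0.0105% in dual tumours.

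Within groups the genes did not vary independently. The correlation of log2 levels after subtraction of each group's mean, over 24 tumours, had a median of 0.49 over the 45 pairs of the 10 genes and was above 0 in 39; it is given as a description, since the tumours share depth scaling and cell makeup. Fos ran closest to Egr1 (Pearson r = 0.88, Spearman rho = 0.89, and r = 0.87 without the 2 tumours farthest from the median of Fos), to Jun (0.83, 0.85 and 0.78) and to Junb (0.82, 0.79 and 0.74). Atf3 ran with Dusp1 (0.85, 0.78 and 0.83). Fosl1 gave lower values, with r between -0.16 and 0.41 and a median of -0.05 against the other 9 genes over all 24 tumours. The highest of these, with Ier3, was 0.62 without T_352_S48. Its r with Fos was -0.16 over 24 tumours, 0.24 without T_352_S48 and 0.45 without the 2 tumours farthest in Fos, so its sign rests on those tumours. T_352_S48 held the highest Fos and the lowest treated Fosl1. T_331_S44 was the reverse, with the lowest triple Fos and the third highest triple Fosl1 at 265 CPM.

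**Figure D3:**
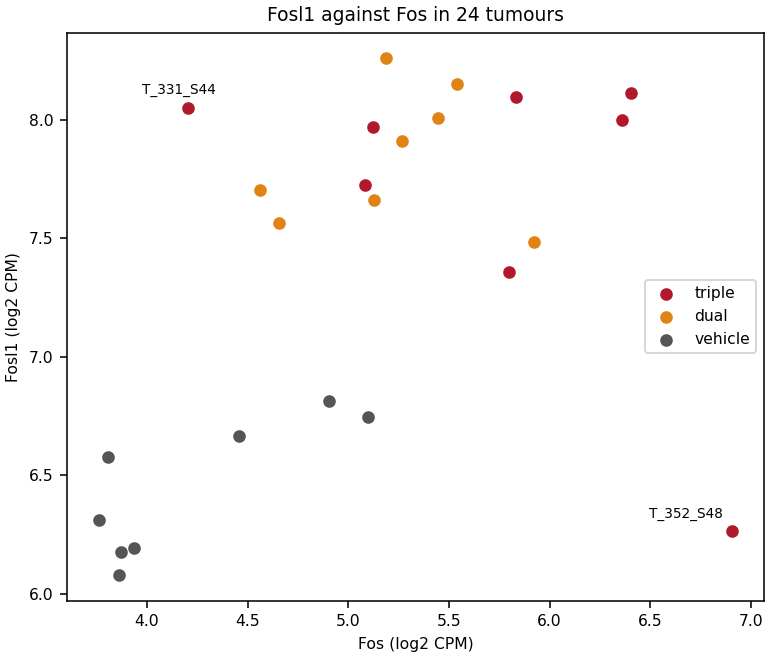
Fosl1 against Fos (both log2 CPM), 1 point per tumour, in triple, dual and vehicle tumours. Most treated tumours lie above the vehicle tumours on Fosl1, except T_352_S48 at 76.8 CPM, and T_331_S44 lies within the vehicle range on Fos at 18.5 CPM.

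The same few tumours were high for most of the genes. Among triple tumours T_354_S47, T_355_S43 and T_352_S48 were in the top 3 for 9, 8 and 7 of the 10 genes, and T_331_S44 was the lowest for 7. All 3 of the high tumours were among the 5 rich in muscle markers (0.199%, 0.208% and 0.184%), but T_353_S45, with the highest muscle share of 0.305%, was in the top 3 for 1 gene and T_362_S42 for 0. T_354_S47, T_355_S43 and T_352_S48 also held the 3 highest neutrophil marker shares of the triple group, at 0.112%, 0.257% and 0.187%. In the same order, they held its 3 highest T cell marker shares, at 0.0328%, 0.0393% and 0.0568%. Its 3 highest fibroblast marker shares were theirs as well, at 0.995%, 1.09% and 4.29%. Among dual tumours D_373_S40 was in the top 3 for 8 genes, D_357_S37 and D_359_S39 for 7 each, while D_344_S33 and D_366_S34 were in the bottom 3 for 9 each. Neutrophil shares matched that order only in part. They were 0.131% in D_373_S40, the highest of the group, 0.0811% in D_357_S37 and 0.106% in D_359_S39. Beside these stood 0.115% in D_344_S33 and 0.0615% in D_366_S34, the lowest of the group. Among vehicle tumours C_375_S31 and C_358_S26 were in the top 3 for 9 genes each and C_356_S27 for 6. C_375_S31 held the lowest muscle (0.0186%) and macrophage (0.243%) and the highest neutrophil (0.0184%) marker share of its group. C_358_S26 and C_356_S27 came next in neutrophil share, at 0.0174% and 0.0172%. The part that cell makeup plays in these differences was not tested.

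**Figure D4:**
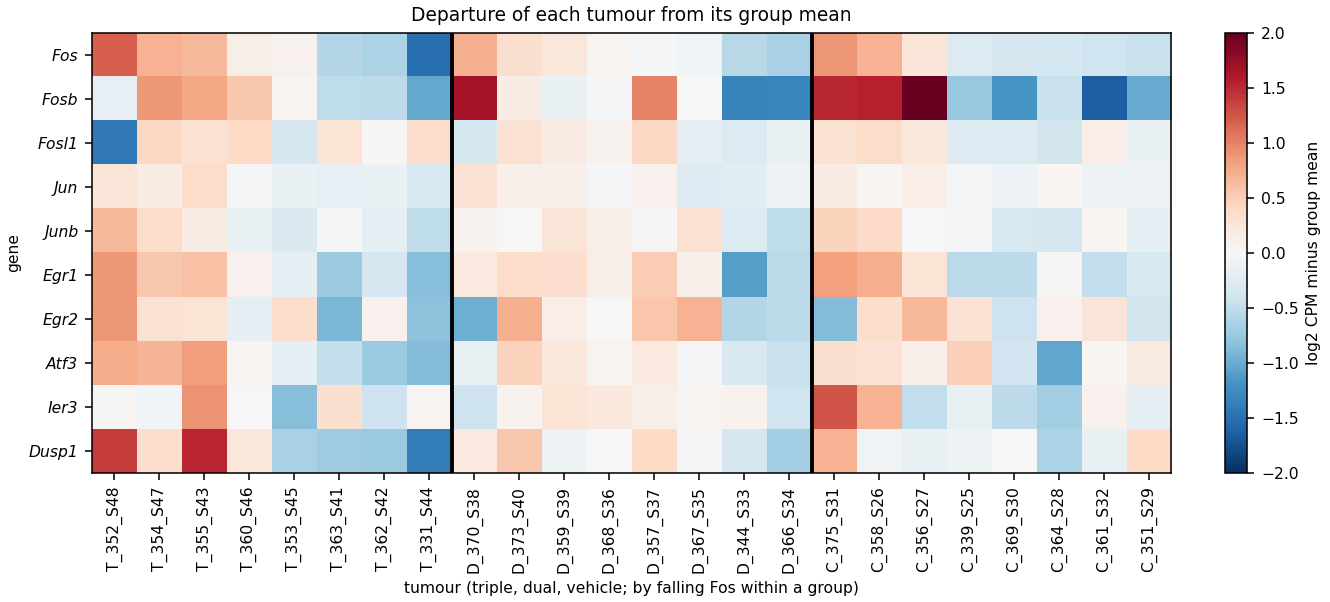
Log2 CPM of each gene minus its group mean (colour), for 24 tumours ordered by group and by falling Fos level within a group. The columns of T_352_S48, T_354_S47, T_355_S43, C_375_S31 and C_358_S26 are mostly above 0, and the row of Fosl1 follows another order, with T_352_S48 lowest.

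By a rule that took the 2 genes outside the set with the highest group-centred correlation, from 9195 genes of at least median expression and over 24 tumours, the genes most like Fos were Zfp36 (r = 0.92), whose protein speeds decay of AU-rich messenger RNAs, and Diaph1 (0.86), an actin-assembly factor. Those most like Fosl1 were Nol10 (0.92) and the growth factor-responsive transcription factor gene Myc (0.92). For Atf3 they were Adam8 (0.93) and Clec4d (0.91), a myeloid lectin receptor, for Dusp1 Lilrb4b (0.91) and Ugcg (0.91), and for Junb Nfkbia (0.90), the NF-kappaB inhibitor, and Cd14 (0.87), a lipopolysaccharide co-receptor of myeloid cells. Jun was most like Diaph1 (0.87) and Tle3 (0.83), Egr1 most like Itga5 (0.87) and Zfp36 (0.85), Ier3 most like Map2k1 (0.86) and Ptgs2 (0.84), and Egr2 most like Slc30a1 (0.79) and Pdpn (0.79). Fosb had no close counterpart, its nearest being Arntl (0.67) and Niban2 (0.67). The 9195 genes searched left out predicted (Gm), Rik and clone-based names. All these r values include T_352_S48, the tumour farthest from the median of its group, and its part in them was not tested.

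Over all genes 23.0% were called higher and 22.8% lower in triple, and 15.0% and 15.8% in dual, against vehicle. In triple against dual 11.4% were called higher and 9.97% lower. Without the 5 muscle-rich tumours, triple against vehicle gave 2853 higher and 2848 lower of 18723 genes, beside 4297 and 4263 with all tumours. Beside these shares the related lists gave the counts below. Each call named below in triple against dual ended, for every gene named, with the 5 muscle-rich tumours left out and with the muscle score in the model. The first of these fits kept only T_331_S44, T_360_S46 and T_363_S41 of the triple group, so fewer tumours stood behind its values. Of 24 effectors induced in the same wave, 18 rose and 1 fell in triple (median log2 fold change 0.77) and 17 rose and 2 fell in dual (0.73) against vehicle. Ptgs2, the inducible prostaglandin synthase, rose by 2.58 in triple and 3.10 in dual, and Gadd45b, a stress sensor, by 2.08 in dual and by a similar amount in triple. Pim1, a survival kinase, rose by 1.78 in triple, and Areg, an epidermal growth factor receptor ligand, by 1.95 in dual. Zfp36 rose by 1.43 in triple and 0.75 in dual, and it was the 1 effector called higher in triple against dual (0.68 ± 0.23, SE, n = 8 per group; limma adjusted p = 0.0376; 5 of 8 tumours higher than the dual median), while Phlda1 fell there by 0.54 on the log2 scale. With the 5 muscle-rich tumours left out the Zfp36 value was 0.082 (adjusted p = 0.927) and that of Phlda1 -0.29 (adjusted p = 0.577), and in triple against vehicle 13 of the 24 effectors rose and 2 fell.

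Of 21 measured transcription factors of the same class, 11 rose and 3 fell in triple and 9 rose and 1 fell in dual against vehicle. Csrnp1 rose by 1.79 in dual and also rose in triple, Nfil3, a leucine zipper repressor, rose by 1.22 in triple and 1.28 in dual, and the orphan nuclear receptor gene Nr4a1 by 0.80 and 0.60. Egr3, a paralog of Egr1, fell by 0.62 in triple and 0.78 in dual on the log2 scale, with 8 of 8 tumours below the vehicle median in both. Nab2, a co-repressor that EGR proteins induce and that restrains them, fell by 0.42 in triple and 0.36 in dual. Ier2 was not called (0.13 in triple, 0.23 in dual). In triple against dual 4 of the 21 rose and 3 fell: Klf4 rose by 0.92 (limma adjusted p = 0.0189) and Klf2 by 0.73, both in 8 of 8 tumours above the dual median. Myc fell there by 0.74 on the log2 scale (adjusted p = 0.0295), as did Srf, the factor that binds CArG boxes, by 0.23 (adjusted p = 0.0441). Leaving out the 5 muscle-rich tumours gave 0.36 for Klf4, 0.37 for Klf2, -0.26 for Myc and -0.075 for Srf, with adjusted p = 0.484 to 0.825. Of the 21 genes 7 then rose and 1 fell in triple against vehicle, and Nr4a1 was no longer called there (0.48, adjusted p = 0.117). With the muscle score in the model, the triple against vehicle calls of Egr3 (-0.45, adjusted p = 0.068) and Fosl2 (0.34, adjusted p = 0.102) ended too. Against vehicle Myc rose by 0.91 in triple and 1.64 in dual, and Srf by 0.37 and 0.60.

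Among 17 other AP-1 family genes, 11 rose and 1 fell in triple and 7 rose and 1 fell in dual against vehicle. Fosl2 rose by 0.28 in triple and 0.36 in dual, and Jund was not called (0.06 and -0.11). Maff, a small MAF gene, rose by 1.00 in dual, with Atf4 (0.75) and Atf5 (0.71), both of the integrated stress response. Batf2 (1.48) and Batf (1.18), genes of lymphoid and myeloid cells, also rose in triple; in triple against dual 5 of the 17 rose, among them Batf2 (1.05) and Maf (0.93), and 1 fell. Without the muscle-rich tumours 6 of the 17 rose and 0 fell in triple against vehicle, and Batf2 (1.28, adjusted p = 0.0544) and Batf (0.45, adjusted p = 0.299) were no longer called. Of 22 genes of the MAP kinase and SRF pathway, 8 rose and 3 fell in triple (median 0.15) and 7 rose and 3 fell in dual (0.09), with the kinase gene Map2k1 higher by 0.49 and 0.56.

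The other dual-specificity phosphatases split. Of 11 genes 6 rose and 3 fell in triple, and 6 rose and 1 fell in dual against vehicle. Dusp5, an ERK phosphatase, rose by 1.32 in triple and 1.36 in dual, and Dusp4 by 0.79 and 1.14. Dusp2 fell by 0.43 in triple and 0.42 in dual, and Dusp6, a cytoplasmic ERK phosphatase, fell by 0.30 in triple (adjusted p = 0.0283), with a value of -0.21 in dual that did not pass (adjusted p = 0.157). Known AP-1 target genes were higher in 9 and lower in 4 of 17 in triple (median 0.56), and higher in 12 and lower in 1 in dual (median 1.19). Cxcl2 rose by 3.50 in triple and 3.98 in dual and Hmox1 by 2.93 and 2.76, while the collagenase gene Mmp1a, at a mean log2 CPM of -1.36 in triple tumours, fell by 1.96 in triple. In triple against dual 0 of these 17 rose at the adjusted threshold and 4 fell, among them Mmp3 (-0.96), Mt2 (-0.86) and Mt1 (-0.74), each with 8 of 8 triple tumours below the dual median. Leaving out the 5 muscle-rich tumours gave -0.59, -0.81 and -0.64 (adjusted p = 0.379 to 0.413). In triple against vehicle Mmp1a (-0.77, adjusted p = 0.0679) and Dusp6 (-0.12, adjusted p = 0.434) were then no longer called.

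Of 10 EGR feedback and target genes 6 rose and 1 fell in triple and 5 rose and 2 fell in dual against vehicle, with Thbs1, a secreted matrix glycoprotein gene, higher by 2.49 in triple and 2.25 in dual. Of 10 heat shock genes, which respond to protein damage and also to handling and ischaemia, 7 rose and 0 fell in triple (median 0.45) and 10 rose and 0 fell in dual (median 0.81) against vehicle. Hspa1b rose by 1.39 in triple and 2.21 in dual. In triple against dual 0 heat shock genes rose and 3 fell, Hspe1 by 0.58, Dnajb1 by 0.53 and Hsp90aa1 by 0.43 on the log2 scale. These values were, without the 5 muscle-rich tumours, -0.38, -0.28 and -0.12 (adjusted p = 0.417 to 0.798).

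**Figure D5:**
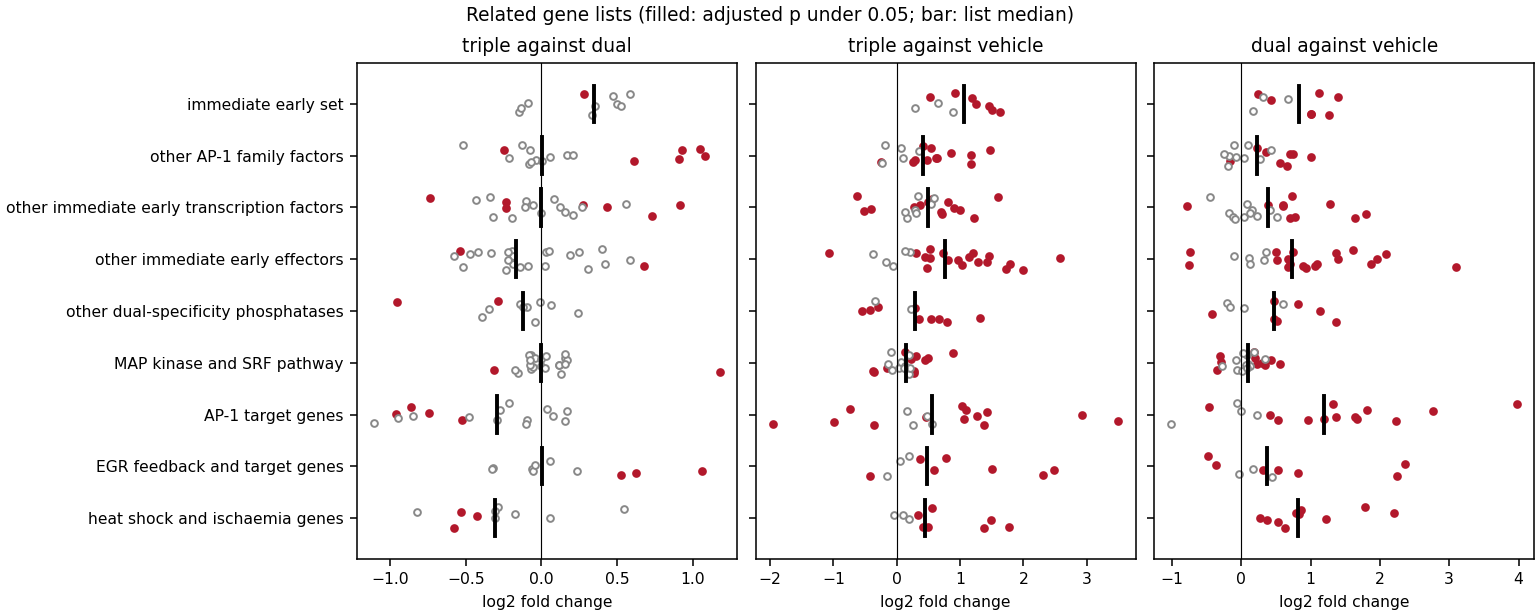
Log2 fold change (x axis) of each gene in 9 related lists for triple against dual, triple against vehicle and dual against vehicle; filled points passed an adjusted p of 0.05 in limma and the bar is the list median. The immediate early set has a median of 1.06 in triple and 0.84 in dual against vehicle, and 0.34 in triple against dual.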

How the data were processed

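RNA of 24 tumours was sequenced from poly(A), strand-keeping libraries (labels' protocols). GRCm39 is the build in the submitters' processing notes, which also list limma, edgeR, featureCounts 1.6.0, STAR 2.7.9a and FastQC 0.11.8 without saying how each was run. The authors deposited log2 values; in every tumour these fitted log2 CPM, with 0.5 added to the reads and a scaled library size, and 100% of values gave whole reads within 0.01 reads. The scaled library size was 0.88 to 1.07 times the total. The filter that left 18723 genes was not given in the sources used here.

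Groups came from the treatment labels. limma 3.58.1 (R 4.3.3) was fitted to these log2 values over all 24 tumours with group means, so 1 spread per gene is shared by the 3 groups, and a variance trend. The groups were not equally spread. Over all genes the median SD of log2 levels was 0.453 in triple, 0.294 in dual and 0.248 in vehicle tumours. A shared spread thus tends to be too wide for dual against vehicle and too narrow for triple tumours. Benjamini-Hochberg adjustment ran over all genes and the threshold was 0.05. The fit was also run on simulated counts with the same dispersion in every group. That run could not show how unequal spread between groups affects the calls. Nothing in the labels but a number per tumour says that tumours came from separate mice; p-values measure the spread between these tumours. Numbers occurred once each, so nothing was paired. Exon lengths for levels per kilobase came from GENCODE M21, by gene ID. Gene positions are the deposited table's (GRCm39) and promoter windows RefSeq's (GRCm38.p6). Figures were drawn with matplotlib 3.10.9 in Python 3.11.15.

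The 10 genes, the related lists and the tests were chosen with earlier results of these data known. Beyond the 10 genes, the text names the 3 called genes with the largest change in each related list and comparison, or some of them (a few are not reported here), 13 fixed genes and the 2 genes most like each member. Alternatives were untrended variance, tumour weights, precision weights, a fit of 2 groups, filters on expression, median centring, quantile normalization, median-of-ratios scaling, an exact permutation test over 12870 assignments, a muscle score covariate, a threshold of 0.01 and leaving out each tumour in turn. Leaving out the muscle-rich triple tumours, and both muscle alternatives for the related lists, were added after seeing the data.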

Additional observations from a re-analysis of the deposited data

Results flagged for a closer look

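Of the 10 genes in 3 groups of 8 tumours, 1 of 30 sets of values held a tumour far from the others of its group by a test of the gap to the nearest value; chance gives about 1 in 20. It was Fosl1 in triple tumours, where the lowest tumour, T_352_S48, lay at 76.8 CPM and the next at 164 CPM, a gap of 0.591 of the whole range on the log2 scale. The same tumour held the highest Fos, Junb, Egr1 and Egr2 of its group.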

How the results depend on the processing

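Against vehicle no sign turned in any alternative that gave a value; Fosb and Egr2 gave none under the filter at median expression. Egr2 came to 0.013 in dual with the muscle score and to 0.013 in triple without the muscle-rich tumours. Of them, 7 were called higher in dual against vehicle, with 5 to 8 on leaving out single tumours and 4 at an adjusted p under 0.01. In triple against vehicle 7 were called, with 7 to 9 on leaving out single tumours, and 5 without the muscle-rich tumours. In triple against dual 1 was called, with 0 to 2 on leaving out single tumours. It was 0 in a fit of 2 groups, with median centring, in the exact permutation test, with the muscle score, without the muscle-rich tumours and at an adjusted p under 0.01. In each comparison 0 of the 10 were called lower under any of these. Signs turned in triple against dual only, for values that missed the threshold. Fosl1 was 0.000297 with tumour weights, 0.032 with the muscle score and 0.20 without the muscle-rich tumours, and ran from -0.21 to 0.058 on leaving out single tumours. Ier3 was 0.074 with the muscle score and 0.035 without the muscle-rich tumours, and ran from -0.22 to 0.029 on leaving out single tumours. Without the muscle-rich tumours Fos was -0.16, Egr2 -0.16, Atf3 -0.082 and Dusp1 -0.29. The triple group then held T_331_S44, T_360_S46 and T_363_S41 alone. The cause of these turns was not tested.

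Over all genes, triple against dual gave 2140 higher and 1867 lower calls. It gave 806 and 568 in a fit of 2 groups, 633 and 717 in the exact permutation test, 440 and 330 at an adjusted p under 0.01, 6 and 3 with the muscle score, 3598 and 3075 without T_331_S44, 1311 and 1160 without T_352_S48, 1343 and 1081 without T_353_S45 and 1533 and 1193 without D_344_S33. Triple against vehicle gave 4297 and 4263, but 1897 and 1883 with the muscle score, 2853 and 2848 without the muscle-rich tumours and 2962 and 2807 at an adjusted p under 0.01. Dual against vehicle gave 2803 and 2957, but 4436 and 4775 with tumour weights and 1769 and 1685 at an adjusted p under 0.01. A fit of 2 groups gave 3801 and 3937 for dual against vehicle. Restricting the genes to those of at least median expression left 9362 to test. Fosb and Egr2 rest on as few as 19 and 22 reads in a tumour, which limits their precision.

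No paired analysis was possible because the groups share no replicate number.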
